A study of Mus musculus with 5 samples.

Results

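Folr2-positive macrophages are a group of cardiac macrophages chosen here by their transcripts, cell by cell, in 5 droplet libraries of adult mouse cardiac interstitial cells. A cell was a macrophage where its value for C1qa, a complement component made by tissue macrophages, was at least 3 and where Csf1r, the receptor for macrophage growth factor, was above 0. It was a member where Folr2 was also at least 1 and where Ccr2, Cd209f and Cdh5 were 0. The values are the deposited ones: the natural log of 1 plus a cell's UMIs (unique molecular identifiers, 1 per captured transcript) scaled to 10000 per cell. By this rule 1193 of 10961 cells were members, out of 3857 macrophages. They are described against the 1256 macrophages without a single Folr2 UMI, library by library.

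The libraries came from hearts of adult mice, digested with collagenase II, freed of cardiomyocytes and sorted on 2 surface proteins, cKit, a stem cell factor receptor, and DDR2, a collagen receptor of fibroblasts. CD45, the common leukocyte antigen, further parted the double-positive cells. Among cKit+ cells the gates were cKit+/DDR2-, sequenced as replicates 1 and 2, and the double positives cKit+/DDR2+/CD45+ and cKit+/DDR2+/CD45-. The remaining gate was cKit-/DDR2+. The labels name no genotype, treatment, strain, exact age or number of hearts, and no animal is tied to a library.

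Folr2 encodes folate receptor beta, a receptor anchored in the membrane by a lipid tail that takes up folate and is carried by many macrophages lodged in tissues. In the mouse heart, macrophages with Folr2, Lyve1 and Timd4 are known as a long-lived resident population that largely renews itself in place. Macrophages with Ccr2, the receptor that draws monocytes out of the blood, and with much MHC class II are replaced more from monocytes. Resident cells of this kind are known for scavenging, clearing debris and trophic signals, and MHC class II cells for presenting antigen to T cells.

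The promoters of the marker genes are shown because these genes were high together in the members. The 6 markers given with this cell group were Folr2, F13a1, Fcna, Cd163, Cbr2 and Ltc4s, and Timd4 was added as a resident macrophage gene. Windows of 200 bases before an annotated start were taken from RefSeq (build GRCm38.p6), which held all 7 of these genes. Letters in capitals mark TGCTGA, the core of the half-site bound by MAF factors, or GAGGAA, the core bound by PU.1, read on both strands. The motifs can share their GA where they adjoin, which none of the printed matches does. TGCTGA was present in 13.2% and GAGGAA in 19.0% of all 32851 windows of this length. Windows that hold at least 1 of them are printed, each 5′ to 3′ on the gene's own strand.
Folr2 (GRCm38.p6, chr7:101845332-101845531, minus strand): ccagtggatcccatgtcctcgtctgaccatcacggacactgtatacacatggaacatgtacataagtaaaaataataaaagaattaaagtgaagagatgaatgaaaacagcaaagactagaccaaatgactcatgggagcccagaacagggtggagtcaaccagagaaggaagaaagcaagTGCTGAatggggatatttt
F13a1 (GRCm38.p6, chr13:37050245-37050444, minus strand): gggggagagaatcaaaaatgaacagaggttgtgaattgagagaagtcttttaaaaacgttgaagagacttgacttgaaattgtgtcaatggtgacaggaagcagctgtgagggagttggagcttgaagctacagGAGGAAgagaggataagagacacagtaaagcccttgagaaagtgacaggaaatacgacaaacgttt
Fcna (GRCm38.p6, chr2:25627975-25628174, minus strand): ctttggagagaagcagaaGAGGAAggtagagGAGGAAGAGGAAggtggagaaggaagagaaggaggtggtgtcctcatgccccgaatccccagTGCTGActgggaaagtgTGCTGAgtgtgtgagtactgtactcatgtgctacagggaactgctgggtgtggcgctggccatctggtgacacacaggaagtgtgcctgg
Cbr2 (GRCm38.p6, chr11:120732022-120732221, minus strand): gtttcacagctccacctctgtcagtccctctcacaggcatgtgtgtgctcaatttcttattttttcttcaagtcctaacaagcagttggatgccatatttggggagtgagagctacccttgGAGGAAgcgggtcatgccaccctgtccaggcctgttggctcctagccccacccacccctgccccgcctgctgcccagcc
Timd4 (GRCm38.p6, chr11:46810599-46810798, plus strand): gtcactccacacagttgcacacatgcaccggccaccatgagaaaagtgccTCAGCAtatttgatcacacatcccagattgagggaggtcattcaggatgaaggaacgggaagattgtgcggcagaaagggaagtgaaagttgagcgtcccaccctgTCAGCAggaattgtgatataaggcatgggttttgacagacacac
The Folr2 window is that of 1 of 2 listed starts and held 1 TGCTGA, and the window at its other start held neither motif. The Fcna window held 2 TGCTGA and 3 GAGGAA motifs, and that of Timd4 held 2 TGCTGA. The printed windows of F13a1 and Cbr2 held 1 GAGGAA each, and the second F13a1 start, Cd163 and Ltc4s held neither. Maf, the gene of a factor that reads TGCTGA, stood at 675 CPM in members and 418 CPM in Folr2-zero macrophages of cKit+/DDR2+/CD45+, and at 795 and 448 CPM in those of cKit+/DDR2- replicate 2. CPM are the UMIs of a gene summed over all cells of a group, as a share of the group's total and on the usual scale of counts per 1e6.

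Most members came from a single library. The cKit+/DDR2+/CD45+ library held 1062 members among 3308 macrophages, a share of 32.1% (exact Clopper-Pearson 95% interval 30.5 to 33.7). cKit+/DDR2- replicate 2 held 126 among 515, or 24.5% (20.8 to 28.4). The other libraries held few macrophages of any kind: 3 of 10 were members in cKit-/DDR2+, 2 of 23 in cKit+/DDR2- replicate 1 and 0 of 1 in cKit+/DDR2+/CD45-. Of all cells, members made up 27.2% in cKit+/DDR2+/CD45+, 4.17% in cKit+/DDR2- replicate 2, 0.459% in cKit+/DDR2- replicate 1 and 0.132% in cKit-/DDR2+. The 0 of 1327 cells in cKit+/DDR2+/CD45- allow a share of up to 0.278%, the upper end of the exact interval. All intervals here cover counting error only.

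**Figure D1:**
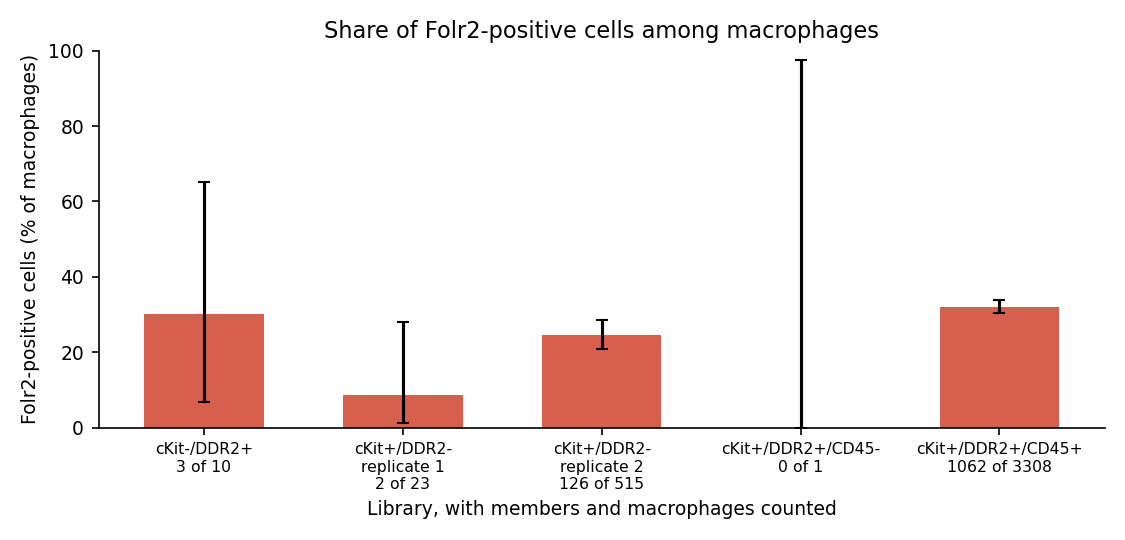
Share of Folr2-positive cells among macrophages (percent, bars) in each of the 5 libraries, with exact 95% intervals as error bars and the counts below each bar. Only cKit+/DDR2+/CD45+ (32.1%) and cKit+/DDR2- replicate 2 (24.5%) hold enough macrophages for a narrow interval.

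Kit transcript was scarce in these cells despite the cKit+ gate. Kit UMIs were seen in 19 of 1062 members of cKit+/DDR2+/CD45+ and in 1 of 126 of cKit+/DDR2- replicate 2. Ddr2 was seen in 4 and 0 members, while Ptprc, the gene of CD45, stood at 294 and 233 CPM. With 1 library for most gates, no difference between gates was tested.

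The rule's exclusions removed many cells. Folr2 was at least 1 in 1739 macrophages (52.6%) of cKit+/DDR2+/CD45+ and in 181 (35.1%) of cKit+/DDR2- replicate 2. Of these, 677 and 55 were left out for Ccr2, Cd209f or Cdh5: 334 and 33 had Ccr2, 392 and 20 had Cd209f, and 30 and 5 had Cdh5. A further 618 and 53 macrophages had Folr2 above 0 and below 1 and belong to neither group. At the threshold, the lowest Folr2 values inside were 1.01 and 1.03, and the highest values outside were 0.999 and 0.994. The lowest C1qa inside was 3.01 and 3.04. Among cells with Csf1r above 0 and Folr2 at least 1, 9 had C1qa above 0 but below 3, all in cKit+/DDR2+/CD45+.

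Members had more UMIs per cell and a higher mitochondrial share than Folr2-zero macrophages, by medians, in both libraries. Members had a median of 10969.5 UMIs per cell against 10515 in cKit+/DDR2+/CD45+, and 11180.5 against 8639 in cKit+/DDR2- replicate 2. Mitochondrial transcripts made up a median of 6.85% against 5.59% and of 3.62% against 3.21%. The libraries held from about 4047330 to 44847800 UMIs. Members gave 12483234 and 1415196 UMIs in these libraries, so low genes are measured more finely in the first. Values of the other libraries rest on 5 cells and are given as UMIs.

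Some barcodes are shared between libraries. cKit+/DDR2- replicate 1 and cKit+/DDR2+/CD45+ had 190 barcodes in common, 43.6% of the cells of the former, where other pairs of libraries had 1 to 3. The shared barcodes had a median of 12133.5 UMIs in cKit+/DDR2- replicate 1 and 622.5 in cKit+/DDR2+/CD45+. Only 2 of the 1062 members there and 1 of the 2 members in cKit+/DDR2- replicate 1 carry such a barcode. Without these cells the share of members in cKit+/DDR2+/CD45+ was 32.1%.

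Folr2 transcripts were visible in endothelial cells of the macrophage-rich library. In cKit+/DDR2+/CD45+ Folr2 UMIs were seen in 32.3% of 130 endothelial cells (median 9798.5 UMIs), which should lack the gene, and in 1.14% of 1759 endothelial cells (9251 UMIs) of cKit+/DDR2- replicate 2. With each cell thinned to 3000 UMIs these shares were 10.1% and 0.348%. Folr2 reached a value of 1 in 6 and 0 of these endothelial cells. Endothelial cells here are cells with Cdh5 and Pecam1 and without Ptprc, outside the shared barcodes. The part of free RNA or of doublets in these counts and in the members' Folr2 was not tested.

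The members were also described by markers of macrophages and of other cell types. All macrophage markers beyond the rule's C1qa and Csf1r were detected in the members, and no lymphoid marker (Cd3e, Cd79a, Ms4a1, Nkg7) had a UMI in either library. The monocyte markers, of which Ccr2 was set to 0 by the rule, summed to 0.801 CPM in members of cKit+/DDR2+/CD45+ and to 0 CPM in those of cKit+/DDR2- replicate 2. In Folr2-zero macrophages they summed to 115.3 and 142.0 CPM, of which Ccr2 made up 114.7 and 140.8 CPM. The monocyte markers other than Ccr2 were thus low in both groups. Endothelial markers summed to 13.5 CPM in members and 30.2 CPM in Folr2-zero macrophages, and to 43.1 and 71.2 CPM in cKit+/DDR2- replicate 2. Gsn, the leading fibroblast marker, stood at 179 and 220 CPM in the first library and at 141 and 269 CPM in the second. The part of these transcripts in the results was not tested.

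Across all genes, 153 of 2981 measured in cKit+/DDR2+/CD45+ lay at least 2-fold apart between members and Folr2-zero macrophages, or 5.13%. A gene was measured with at least 50 CPM in 1 group and 20 UMIs in the higher group. There were 105 genes higher in members (3.52%) and 48 lower (1.61%), with a median log2 ratio of 0.10 over all measured genes. For cKit+/DDR2- replicate 2 the counts were 176 of 2968 (5.93%), with 103 higher (3.47%) and 73 lower (2.46%), and a median of 0.06. Folr2 among the higher and Ccr2 among the lower genes were set by the rule. Without the cells of shared barcodes the counts were 152 and 176.

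The libraries shared most of the higher genes. Of 2744 genes measured in both, 76 were 2-fold higher in members in both (2.77%) and 34 were 2-fold lower in both (1.24%), and none was on opposite sides. The 76 are 72.4% of the higher genes of cKit+/DDR2+/CD45+ and 73.8% of those of cKit+/DDR2- replicate 2. The 34 are 70.8% and 46.6% of the lower ones. Of the 105 and 48 genes called in the first library, 104 and 47 had the same sign in the second.

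**Figure D2:**
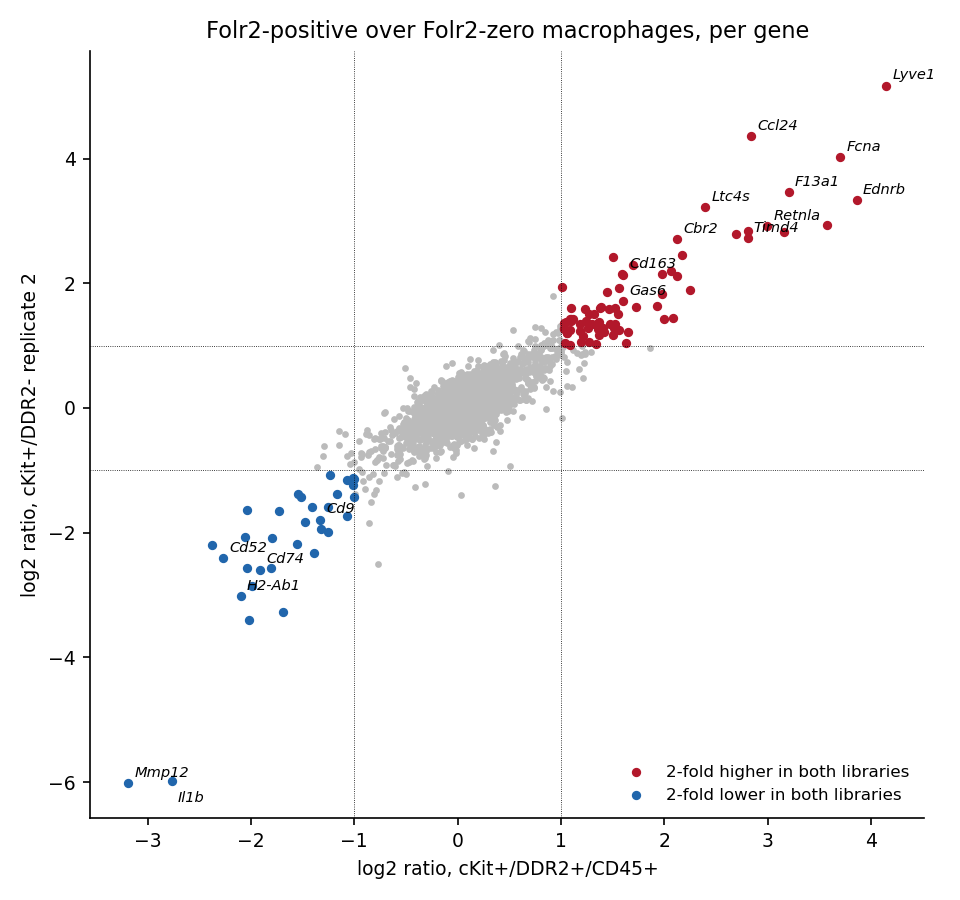
Log2 ratio of CPM, Folr2-positive over Folr2-zero macrophages, for each gene measured in both libraries: cKit+/DDR2+/CD45+ on the x axis, cKit+/DDR2- replicate 2 on the y axis. The rule's own genes are left out, dotted lines mark 2-fold, and Lyve1 (4.15 and 5.17) and Mmp12 (-3.19 and -6.01) lie at the corners.

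The 5 markers other than Folr2 were all past 2-fold in both libraries. F13a1, the A chain of coagulation factor XIII, stood at 1372 CPM in members and 148 CPM in Folr2-zero macrophages of cKit+/DDR2+/CD45+, a log2 ratio of 3.20 (95% interval 3.14 to 3.29). The second library, cKit+/DDR2- replicate 2, had it at 1648 and 148 CPM (log2 3.46, 3.31 to 3.63). Ratios are taken after adding 1 CPM to both sides, and their intervals are those of the plain ratio.

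Fcna, a ficolin that binds sugars on microbes and starts the lectin pathway of complement, had log2 ratios of 3.70 (3.55 to 4.09) and 4.03 (3.54 to 4.88). It was at 163 CPM in members against 11.6 CPM in the first library, and at 159 against 8.80 CPM in the second. Ltc4s, the enzyme that makes leukotriene C4, was at 366 against 68.6 CPM (2.40, 2.30 to 2.53) and at 508 against 53.6 CPM (3.22, 2.98 to 3.52). Members of the libraries thus matched closely for Fcna and were a little apart for Ltc4s.

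Cbr2, a carbonyl reductase, stood at 513 against 117 CPM (2.12, 2.04 to 2.22) and at 1004 against 153 CPM (2.70, 2.55 to 2.88). Cd163, the scavenger receptor for haemoglobin bound to haptoglobin, stood at 254 against 82.9 CPM (1.61, 1.51 to 1.73) and at 377 against 84.8 CPM (2.14, 1.92 to 2.39). Cd163 had the smallest ratio of the 5 in both libraries. In the 5 members of the small libraries F13a1 had UMIs in 4 cells, Cbr2 in 4, Ltc4s and Fcna in 3 each and Cd163 in 2. Those 4 cells with F13a1 held 49, 21, 13 and 7 UMIs of it, and the other, from cKit-/DDR2+, had 24 UMIs of Fcna and 115 of the MHC class II gene H2-Aa.

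The markers occurred together in single cells. At least 3 of the 5 other markers were seen in 972 of 1062 members and 304 of 951 Folr2-zero macrophages of cKit+/DDR2+/CD45+, and in 115 of 126 and 60 of 281 in cKit+/DDR2- replicate 2. Thinned to 3000 UMIs per cell, which leaves out 13 and 1 members and 32 and 12 Folr2-zero cells as shallower, the shares were 62.1% against 6.96% and 74.4% against 5.95%. All 5 were seen in 330 of 1062 and 50 of 126 members, and none in 2 and 1. F13a1 was also seen in 30.0% of the endothelial cells of the first library and in 2.33% of those of the second, and the part of free RNA in the shares was not tested.

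Resident macrophage genes outside the label's list were higher in the members as well. Lyve1, a hyaluronan receptor of lymphatic vessels and of macrophages along blood vessels, stood at 362 CPM in members and 19.4 CPM in Folr2-zero macrophages of cKit+/DDR2+/CD45+ (log2 4.15, 4.01 to 4.43). The second library had it at 769.5 and 20.4 CPM (5.17, 4.83 to 5.67). Of the measured genes that the rule did not use, Lyve1 had the highest ratio in both libraries. Lyve1 was also seen in 32.3% and 32.2% of the endothelial cells.

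Timd4, a receptor for phosphatidylserine on dying cells, stood at 167 against 23.0 CPM (2.81, 2.66 to 3.06) and at 114 against 16.4 CPM (2.73, 2.30 to 3.33). It was seen in 72.4% and 60.3% of members, and in 16.4% and 8.90% of Folr2-zero macrophages. Igf1, insulin-like growth factor 1, stood at 140 against 34.7 CPM (1.98, 1.84 to 2.18) and 122 against 26.8 CPM (2.15, 1.77 to 2.62). Gas6, the bridge between dying cells and their receptors Axl and Mertk, stood at 641 against 211 CPM (1.60) and 413 against 125 CPM (1.71). Of the resident list of 17 genes, 12 were measured in the first library and 8 were 2-fold higher, and 7 of 11 in the second. None was 2-fold lower in either, and the list medians were 1.40 and 1.24. Over all measured genes the medians were 0.10 and 0.06, with 3.52% and 3.47% of genes 2-fold higher.

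Ednrb and Fgfr1, a pair of receptor genes, were also past 2-fold in both libraries. Ednrb, the endothelin receptor type B, stood at 87.0 against 5.06 CPM (3.86, 3.70 to 4.54) and at 61.5 against 5.20 CPM (3.33, 2.71 to 4.53). Fgfr1, a fibroblast growth factor receptor, stood at 87.3 against 6.42 CPM (3.57, 3.41 to 4.15) and at 74.2 against 8.80 CPM (2.94, 2.40 to 3.81). Ednrb was seen in 43.1% and 34.9% of members and in 4.94% and 2.49% of Folr2-zero macrophages. Endothelial cells carry both genes too, with Ednrb in 40.0% and 48.2% of them.

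Among 20 scavenger and phagocytic receptors, 12 were measured, and just 1 was higher and 1 lower past 2-fold in each library. The higher one was Colec12, a scavenger receptor with a lectin domain, at 164 against 17.5 CPM (3.15) and 150 against 20.4 CPM (2.82). The lower one was Axl, a receptor for Gas6, at 138 against 278 CPM and 82.7 against 223 CPM (-1.42). Gas6 was thus higher in members while its receptor Axl was lower, in both libraries. Mrc1, the mannose receptor, and Stab1, a scavenger of modified lipoproteins, had ratios under 2-fold, of 0.88 and 0.82 and of 0.96 and 0.91.

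Of 11 genes of alternative activation, 7 were measured and 2, Retnla and Ccl24, were 2-fold higher in both libraries. The share over all genes measured in both was 2.77%. Ccl24, eotaxin 2, which draws eosinophils, stood at 382 against 52.5 CPM (2.84, 2.73 to 2.99) and at 283 against 12.8 CPM (4.36, 3.95 to 5.04). Retnla, the secreted protein RELM alpha, stood at 1231 against 153 CPM (log2 interval 2.93 to 3.08) and 1071 against 141 CPM (2.92, 2.76 to 3.10). The second value turns on the cells it is set against: Folr2-zero macrophages also without Ccr2, Cd209f and Cdh5 had 161 and 4.41 CPM of Retnla. Mgl2, a lectin of the same list, was below 2-fold and on the other side, at -0.58 and -0.85.

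The Retnla UMIs were concentrated in few members. It had the highest ratio of variance to mean among the members' genes in both libraries, at 35.5 among 2103 genes and 45.2 among 2118, where the medians were 1.07 and 1.08. The 107 members with the most Retnla held 78.9% of its UMIs in cKit+/DDR2+/CD45+ and the 13 highest of cKit+/DDR2- replicate 2 held 95.4%, up to 563 and 461 UMIs in a cell. At least 10 UMIs were found in 17.5% and 11.9% of members, and in 1.05% and 1.42% of Folr2-zero macrophages. The same numbers of members held 29.5% and 29.8% of the F13a1 UMIs.

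The low counts of Retnla differ between the libraries. At least 1 UMI was seen in 79.6% of members of cKit+/DDR2+/CD45+, 65.7% of its Folr2-zero macrophages and 56.9% of its endothelial cells. The shares in cKit+/DDR2- replicate 2 were 23.8%, 5.69% and 2.56%. The shares of the first library were high in all 3 of these groups, and the part of free RNA in its low Retnla counts was not tested. In the 5 members of the small libraries, 1 cell of cKit-/DDR2+ held all 122 Retnla UMIs.

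**Figure D3:**
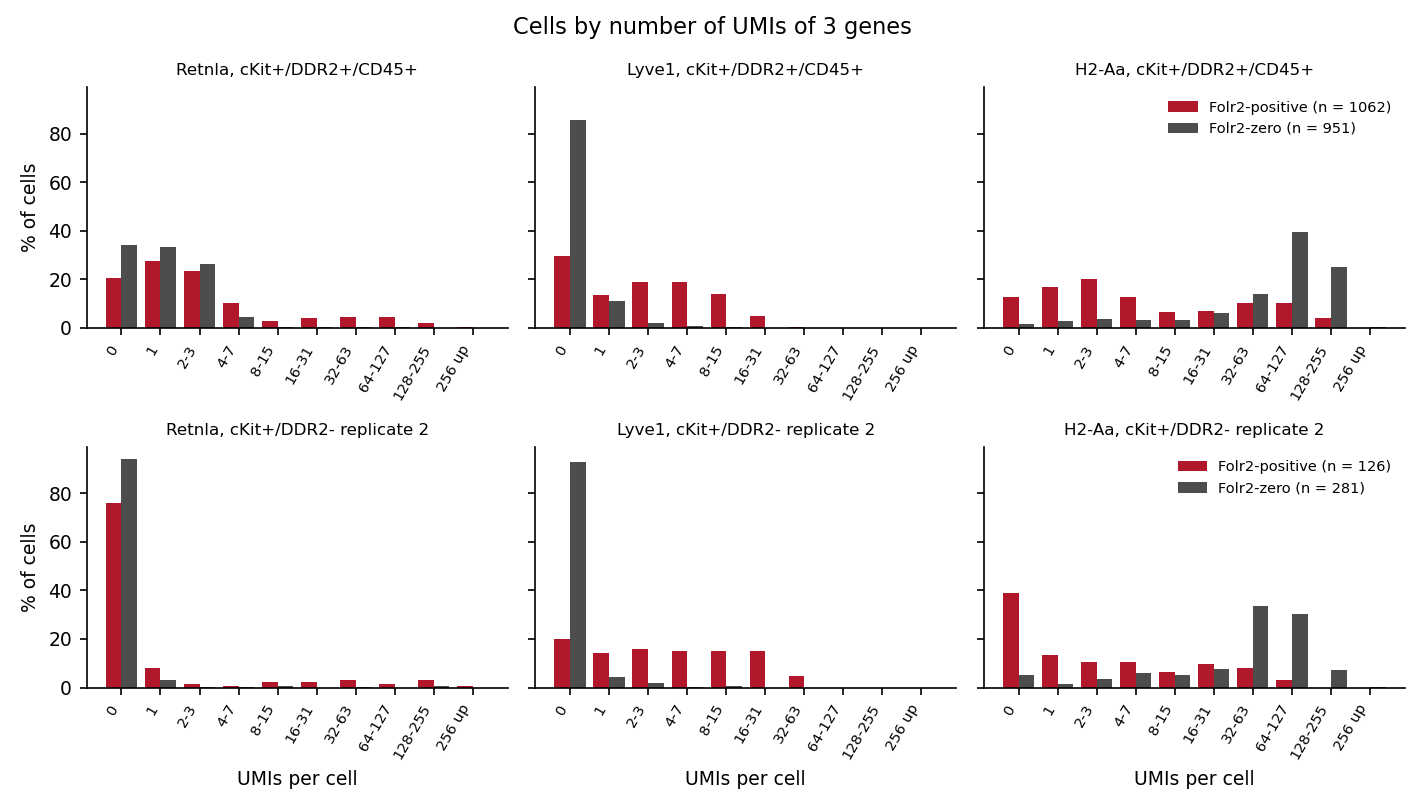
Percent of cells (y axis) by number of UMIs per cell (x axis, bins doubling in width) for Retnla, Lyve1 and H2-Aa in Folr2-positive (red) and Folr2-zero (grey) macrophages of both libraries. Retnla has a thin tail of members with many UMIs, and H2-Aa is spread over the whole range in members but bunched at high counts in Folr2-zero cells.

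MHC class II genes were lower in the members as a group. In cKit+/DDR2+/CD45+ all 8 measured of 9 list genes were 2-fold lower (median -1.86, all genes 0.10), and in cKit+/DDR2- replicate 2 all 7 measured (median -2.59, all genes 0.06). The list's summed level was 10249 CPM in members and 39329 CPM in Folr2-zero macrophages of the first library, and 4975 and 32186 CPM in those of the second. The other list genes did not reach the minimum, so these counts do not cover the whole list.

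H2-Aa, the alpha chain of I-A, stood at 2063 against 8192 CPM (-1.99, -2.01 to -1.97) and 888 against 6454 CPM (-2.86, -2.95 to -2.78). H2-Ab1, its beta chain, had ratios of -2.10 and -3.01, and H2-Eb1, the I-E beta chain, of -2.02 and -3.40. Cd74, the invariant chain, stood at 6097 against 22868 CPM (-1.91) and 3099 against 18680 CPM (-2.59). Ciita, the factor that switches on these genes, stood at 31.6 against 113 CPM (-1.81, -2.01 to -1.67) and 16.3 against 102 CPM (-2.57, -3.33 to -2.03). The peptide loading genes H2-DMa and H2-DMb1 had ratios of -1.25 and -1.55 in the first library and -1.59 and -2.18 in the second.

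The members were not alike in MHC class II. Their median was 4 UMIs of H2-Aa per cell in cKit+/DDR2+/CD45+, with quartiles at 1 and 29, where Folr2-zero macrophages had a median of 93 and quartiles at 41 and 129. The median in cKit+/DDR2- replicate 2 was 1 with quartiles at 0 and 8, against 52 with quartiles at 23 and 82. At least 10 UMIs of H2-Aa were found in 35.5% and 23.0% of members and in 87.4% and 82.2% of Folr2-zero macrophages. The groups overlapped cell by cell in both libraries.

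Within the members, H2-Aa was seen in a smaller share of cells with Lyve1 than of cells without it. With cells thinned to 3000 UMIs, H2-Aa was seen in 52.5% of 514 members with Lyve1 and in 72.5% of the rest in cKit+/DDR2+/CD45+. The second library had it in 35.1% of 77 members with Lyve1 and in 66.7% of the rest. Timd4 and Lyve1 were seen together more often in the first library, Lyve1 in 62.8% of members with Timd4 and 40.7% of those without, but hardly so in the second (62.5% and 61.3%). Cells of a library are not replicates and the part of free RNA was not tested, so these shares are a description.

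Levels were also taken over bins of Folr2 on both sides of the rule's threshold. Over macrophages without Ccr2, Cd209f or Cdh5, F13a1 in cKit+/DDR2+/CD45+ stood at 155 CPM where Folr2 was 0, 299 CPM where it was below 1, 964 CPM from 1 to 2 and 1755 CPM at 2 or more. The levels in cKit+/DDR2- replicate 2 were 176, 879, 1277 and 2044 CPM. Lyve1 went from 23.5 to 47.5, 204 and 511 CPM, and from 25.7 to 174, 438 and 1123 CPM. The counting intervals of neighbouring bins did not overlap for either gene. They cover the counting error of pooled UMIs and not the spread between cells, so the bins are a description.

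H2-Aa ran the other way, from 7432 to 5874, 2946 and 1232 CPM, and from 5440 to 2332, 1240 and 511 CPM in the second library. Il1b ran from 1114 to 801, 210 and 86.5 CPM, and from 803 to 161, 17.8 and 2.92 CPM. C1qb, another chain of complement C1q, stayed between 3770 and 4149 CPM and between 3566 and 4113 CPM. The intervals of the top pair of Il1b bins overlapped in the second library, where few UMIs were left.

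**Figure D4:**
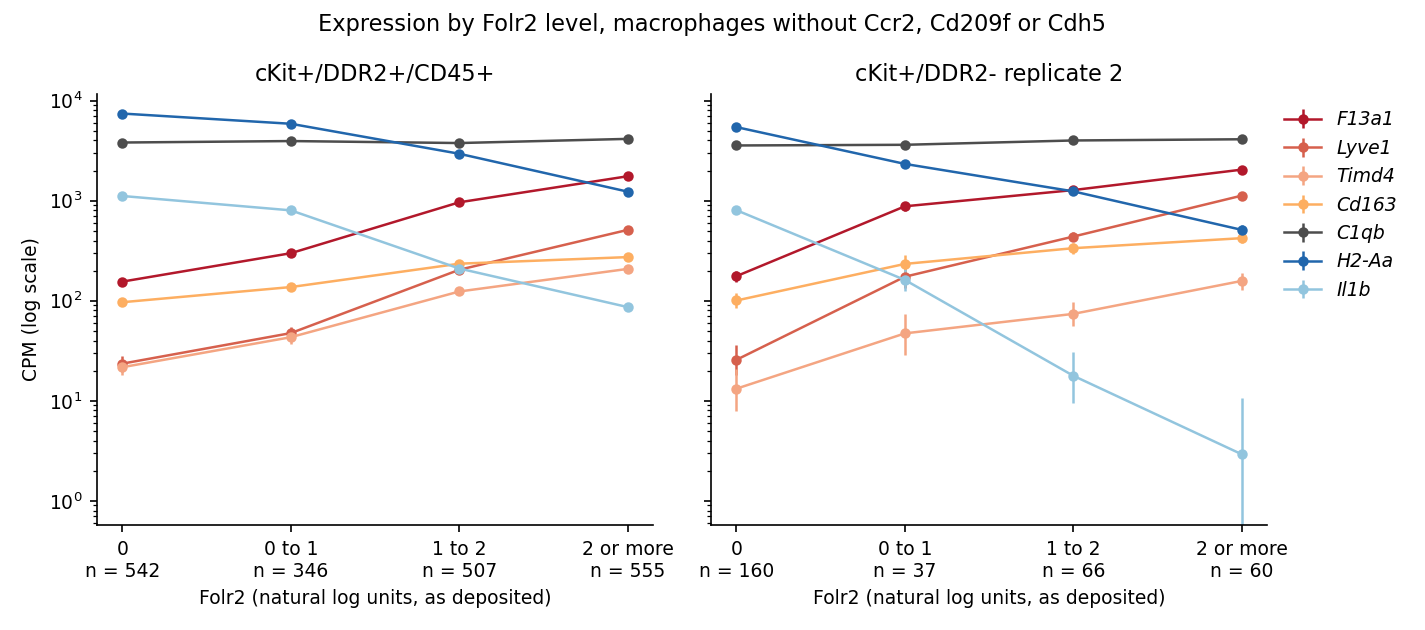
CPM (log scale, y axis) of 7 genes in macrophages binned by their Folr2 value (x axis, natural log units), with 95% Poisson intervals, for both libraries. F13a1, Lyve1, Timd4 and Cd163 climb with Folr2, H2-Aa and Il1b descend, and C1qb stays between 3566 and 4149 CPM.

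Il1b, Mmp12 and Cd52 were among the lower genes of both libraries. Il1b, interleukin 1 beta, stood at 146 against 1002 CPM (-2.77, -2.85 to -2.70) and at 10.6 against 734 CPM (-5.99, -6.95 to -5.39). Mmp12, macrophage elastase, stood at 25.6 against 241 CPM (-3.19, -3.41 to -3.07) and at 1.41 against 155 CPM (-6.01, -9.83 to -4.91). The second Mmp12 value rests on very few UMIs in the members. Cd52, a small surface glycoprotein of leukocytes, stood at 123 against 596 CPM (-2.27) and 102 against 545 CPM (-2.41).

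The list of monocyte-derived and inflammatory genes did not move as a block. Of 20 genes 7 were measured in each library, with 2 lower (Il1b and Cd52) and 2 higher (S100a4 and S100a6), and medians of -0.35 and -0.14. S100a4 and S100a6, calcium-binding proteins, had ratios of 1.42 and 1.36 in the first library and 1.22 and 1.36 in the second. Tnf, tumour necrosis factor, was below 2-fold at -0.35 and -0.14. Cytip and Runx3, a regulator of leukocyte adhesion and a transcription factor, were 2-fold lower, at -2.04 each and at -2.56 and -1.63.

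Chemokine genes went both ways. Of 11 measured in cKit+/DDR2+/CD45+, 4 were higher (Ccl24, Ccl7, Ccl9 and Ccl6) and 2 lower (Cxcl16 and Ccl4), and of 13 in cKit+/DDR2- replicate 2, 4 were higher (Ccl24, Ccl2, Ccl9 and Ccl6) and 2 lower (Cxcl13 and Cxcl16). Ccl6 stood at 734 against 257 CPM (1.51) and 1429 against 267 CPM (2.41). Cxcl16, a membrane chemokine, stood at 203 against 407 CPM and 170 against 375 CPM (-1.14). The Cxcl13 value rests on 204 UMIs in 0.356% of the Folr2-zero macrophages, that is on a single cell. Ccl24, Ccl9, Ccl6 and Cxcl16 were on the same side of 2-fold in both libraries. Over all genes measured in both, 2.77% were higher in both and 1.24% lower in both. Cxcl16 was at the threshold in the first library. It was no longer called there with C1qa at least 2, Folr2 above 0, or cells with signs of a second cell type left out.

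Of the chemokine and survival receptors, Tgfbr1, a receptor for transforming growth factor beta, was 2-fold lower in both libraries (-1.51 and -1.42). Tgfbr2, its partner, was at 0.30 and 0.02. Cx3cr1, the fractalkine receptor, was lower by less than 2-fold, at 351 against 461 CPM (-0.39) and 337 against 521 CPM (-0.63). Csf1r and C1qa, which the rule used, differed by 0.15 and 0.20 at most.

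Iron handling showed 1 gene past 2-fold in both libraries among 11 measured, where 2.77% of all genes measured in both were higher in both. Slc40a1, ferroportin, the exporter of iron, stood at 92.1 against 29.8 CPM (1.59, 1.44 to 1.81) and 76.3 against 16.4 CPM (2.15, 1.69 to 2.77). Hmox1, haem oxygenase 1, and Blvrb, biliverdin reductase B, had ratios of 0.81 and 0.86 in the first library and 0.74 and 1.05 in the second. Ftl1, ferritin light chain, was at 0.01 and 0.39. With Cd163 above, the haem uptake receptor and the iron exporter were past 2-fold, and ferritin light chain was not.

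Folate genes other than Folr2 were barely measured. Of 21 genes of folate uptake and one-carbon metabolism, 2 reached 50 CPM, Mat2a (0.24 and 0.15) and Ggh (0.11 and 0.05), and neither was 2-fold apart. Mtr, methionine synthase, stood at 31.9 against 23.1 CPM and 28.3 against 23.6 CPM, under the minimum. The depth does not allow a statement on the rest of the list.

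Other lists held little. In complement, Cfp, properdin, was 2-fold higher in both (1.27 and 1.28). In the lysosomal list 1 of 15 genes was higher in both, Ctsd, cathepsin D (1.19 and 1.06), and among Fc receptors 1 of 5, Fcgrt, the neonatal Fc receptor (1.03 and 1.26). Of 7 genes of leukotriene and prostanoid synthesis, Alox5, which feeds Ltc4s, was at 1.02 and 0.97. Selenop, the selenium carrier, was at 1.09 and 1.24.

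No core macrophage gene was past the threshold. None of 15 measured was 2-fold apart in either library, with medians of -0.01 and -0.08 and ranges of -0.62 to 0.96 and -0.91 to 0.79. Apoe, apolipoprotein E, and Lyz2, lysozyme, stayed under 2-fold, Apoe at 18015 against 10320 CPM (0.80) and 17392 against 8992 CPM (0.95). Lyz2 was at 0.96 and 0.79. None of 16 immediate early and dissociation genes was 2-fold apart either. Among 20 and 19 measured macrophage transcription factors, Klf2 was higher (1.11) and Id2 lower (-1.30) in the first library and none in the second. Maf was at 0.69 and 0.83.

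Few members were cycling by transcript. After thinning, Mki67 or Top2a was seen in 26 of 1049 members (exact interval 1.63 to 3.61%) and 41 of 919 Folr2-zero macrophages (from 3.22%) of cKit+/DDR2+/CD45+. The counts in cKit+/DDR2- replicate 2 were 1 of 125 (0.0203 to 4.38%) and 12 of 269 (2.33 to 7.66%). The intervals overlap in both libraries.

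Transcripts of cardiomyocytes differed with the group in 1 library. In cKit+/DDR2- replicate 2 the 7 genes of that list summed to 85.5 CPM in members and 336 CPM in Folr2-zero macrophages, and 4 of 4 measured were 2-fold lower in members, among them Myl2 (-2.03) and Mb (-2.05). In cKit+/DDR2+/CD45+ the sums were 35.2 and 39.0 CPM. No gene of the shorter marker list (Myh6, Tnnt2, Actc1, Mb) was at 0 in the members, and the part of these transcripts in the results was not tested.

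Set beside the other macrophages of the same libraries, members were compared with 3 other groups, of which those with Cd209f are described first. The 525 Cd209f-positive macrophages of cKit+/DDR2+/CD45+ had 1229 CPM of F13a1, 301 of Lyve1, 172 of Timd4 and 248 of Cd163, where members had 1372, 362, 167 and 254 CPM. Folr2 was at least 1 in 392 of them (74.7%) and in 20 of 21 in cKit+/DDR2- replicate 2. They had more Retnla, 2047 against 1231 CPM, and more H2-Aa, 3235 against 2063 CPM. The rule's conditions on Folr2, Ccr2 and Cdh5 were not applied to these 525 cells. Ccr2 was seen in 22.1% of them and in no member, and its part in the differences was not tested. In the second library 21 such cells had 485 CPM of Retnla and 935 of H2-Aa, against 1071 and 888 CPM, so the order of Retnla was not the same in both. Those 21 cells also had more Ccl24, 668 against 283 CPM, and more Cd163, 646 against 377 CPM. Il1b was higher in the Cd209f-positive cells of the first library, at 273 against 146 CPM.

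Macrophages with Ccr2 and without Folr2 numbered 353 and 118. Their F13a1 stood at 138 and 115 CPM, their Lyve1 at 13.7 and 12.7 CPM, and their H2-Aa at 9544 and 7735 CPM. Macrophages with Cx3cr1 and with neither Folr2 nor Ccr2 numbered 467 and 132, with F13a1 at 159 CPM in both and H2-Aa at 7368 and 5364 CPM. Both groups were below the members in F13a1 and above them in H2-Aa in both libraries. They were defined by the absence of Folr2 and are a description.

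**Figure D5:**
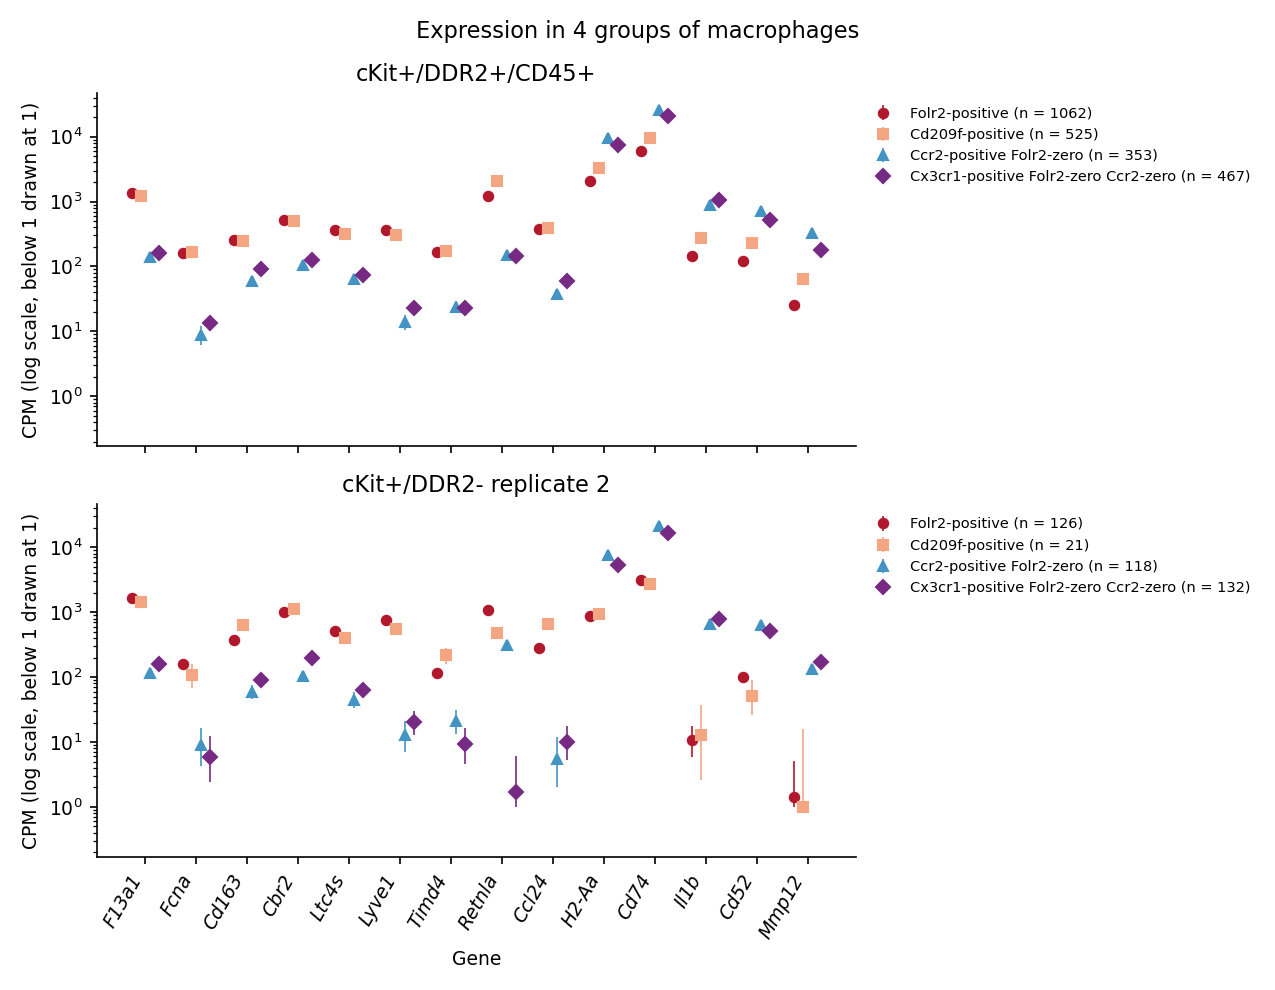
CPM (log scale, y axis) of 14 genes (x axis) in 4 groups of macrophages of cKit+/DDR2+/CD45+ (top) and cKit+/DDR2- replicate 2 (bottom), with 95% Poisson intervals. Both Folr2-zero groups are lower for the resident genes and higher for H2-Aa, Cd74 and Il1b.

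The members of cKit+/DDR2+/CD45+ and cKit+/DDR2- replicate 2 were also set against each other. Of 3020 genes measured, 57 (1.89%) were at least 2-fold apart, 28 higher (0.927%) and 29 lower (0.96%) in cKit+/DDR2+/CD45+. With cells thinned to 3000 UMIs 115 genes were apart, 81 higher and 34 lower. At a minimum of 20 CPM there were 129, with 79 higher and 50 lower, and at 200 CPM there were 23, with 7 higher and 16 lower. This comparison has 1 library a side and no replicate check.

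The libraries also differ in ways no gate describes. Over all their cells the first and second library had 0.0669 and 496 CPM of Xist and 58.8 and 0 CPM of Ddx3y, and Gm42418, which carries ribosomal RNA fragments, took 0.98% and 9.09% of UMIs. The gate and the differences between the libraries therefore cannot be told apart.

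Higher in members of cKit+/DDR2+/CD45+ were Il1b (3.67, 3.06 to 4.63), the complement receptor gene Vsig4 (2.92, 2.37 to 3.75), Cd207 (2.29), the clock gene Dbp (2.10) and Ccl12 (1.47). Cd207 was no longer called with thinned cells, with means over cells or with C1qa at least 4. Vsig4 stood at 109 CPM against 13.4 CPM, and was held by few cells: 20.3% of members had a UMI and the 107 highest held 89.9% of its UMIs. Il1b was concentrated too: the 107 highest members of cKit+/DDR2+/CD45+ held 83.7% of its UMIs, and the median was 0. Members of cKit+/DDR2- replicate 2 held 15 Il1b UMIs in 11 cells. Of 6 measured MHC class II genes, 4 were 2-fold higher, H2-Eb1 by 1.54, and the others were on the same side. H2-Eb1 was no longer called with Folr2 at least 2. H2-Aa stood at 2063 against 888 CPM in members, and at 8192 against 6454 CPM in the Folr2-zero macrophages of the same libraries.

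Lower in members of cKit+/DDR2+/CD45+ were the interferon-induced chemokine Cxcl10 (-2.71), Adamts1 (-2.25), the heat shock genes Hspa1b (-2.24), Hspa1a (-1.90) and Hspb1 (-1.82), and Phlda1 (-1.87). Cxcl10 was no longer called with thinned cells, means over cells, C1qa at least 4 or Folr2 above 0. The same held with cells with Mki67 or Top2a, or with signs of a second cell type, left out. Adamts1 was no longer called with thinned cells. Of the 16 immediate early and dissociation genes, 4 were 2-fold lower. Hspa1a stood at 645 CPM against 2410 CPM in members and at 818 against 2488 CPM in Folr2-zero macrophages, so it was lower in both groups. Lyve1 was the resident gene on this side, at 362 against 769.5 CPM (-1.09, -1.18 to -0.99). Of the 5 markers beside Folr2 none was 2-fold apart between the libraries' members, with Cbr2 the farthest (-0.97) and Fcna at 0.03.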

How the data were processed

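The deposited tables hold, per the labels and the submitters' processing notes, natural log values from Cell Ranger (version not given in the sources used here) and Seurat 4.0.4 on mm10. The values are ln of 1 plus UMIs scaled to 10000 per cell, and whole UMIs came back for 100% of values within 0.01. Unlisted genes counted as 0. Group sums of UMIs were scaled to CPM with Python 3.11.15, numpy 2.4.6, scipy 1.17.1 and pandas 2.3.3, and the ratio code was checked on simulated counts. Log2 ratios were taken after adding 1 CPM, for genes whose higher group reached 50 CPM and 20 UMIs, with a call at 2-fold. Intervals at the 95% level are exact Poisson, Clopper-Pearson and conditional binomial ones. No test was run, because most sorts have 1 library and the rule uses measured values. No doublet caller was run, and cells with signs of a second cell type were left out in an alternative. The members and the gene lists were chosen with earlier results of these data known. The text names the rule's genes, the markers, the largest differences shared by both libraries or found between them, and list members by level; Ccl7, Cxcl13 and Id2 fall outside this and were named after their values were seen, to complete a count. Alternatives covered thinning, weighting, thresholds, the added CPM, the minimum CPM, exclusions and scaling. Some items are not reported here.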

Additional observations from a re-analysis of the deposited data

How the results depend on the processing

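Folr2-positive and Folr2-zero cells were compared within each library, so these groups are paired by library. Only cKit+/DDR2+/CD45+ and cKit+/DDR2- replicate 2 held enough cells of both groups, and they are of different sorts. The comparison between libraries has 1 library a side. No named gene that was 2-fold apart changed sign under the alternatives run, and 41 to 53 of 53 stayed past 2-fold in cKit+/DDR2+/CD45+, 49 to 56 of 56 in cKit+/DDR2- replicate 2 and 13 to 16 of 16 between their members. In cKit+/DDR2+/CD45+ the 153 genes 2-fold apart between Folr2-positive and Folr2-zero macrophages became 93 with Folr2 above 0 and 230 with Folr2 at least 2. They became 249 at a minimum of 20 CPM and 61 at 200 CPM. In cKit+/DDR2- replicate 2 the 176 became 316 at 20 CPM and 57 at 200 CPM. Between the members of the libraries the 57 became 115 with thinned cells, 92 with Folr2 at least 2, 129 at 20 CPM and 23 at 200 CPM. The minimum sets how many genes are tested. The other causes were not tested. The other alternatives stayed within 1.5 times. The share of members among macrophages of cKit+/DDR2+/CD45+ was 42.6% with Folr2 above 0 and 16.8% with Folr2 at least 2. It was 36.0% with C1qa at least 4 and 52.6% with no exclusions. In cKit+/DDR2- replicate 2 it was 31.7%, 11.7%, 29.2% and 35.1% under these 4. With thinned cells the share was 38.3% in cKit+/DDR2+/CD45+, but under another rule. There C1qa, Csf1r and Folr2 had only to be above 0, and the excluded genes at 0, in the thinned counts. The part of depth alone in that share was not tested. Cells with barcodes of another library were left out as an alternative chosen after seeing the data, and this left 152, 176 and 57 genes. Depth limits genes under 50 CPM in the 126 members of the second library.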
